A study of Mus musculus with 5 samples.

Results

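The genes described are 10 contractile genes of muscle: the smooth muscle genes Acta2, Actg2, Myh11, Myl9, Mylk, Cnn1, Smtn, Des and Tagln, and the skeletal muscle actin gene Acta1. They were found by gene name in the deposited count table, which lists 28666 genes, and each name matched 1 row. The 10 genes were selected on results of these libraries, that is with the measured counts of this comparison in view, so their levels and group differences are a description, no p-value is given for them, and counts of calls among them stand only beside the share of all genes. RNA of whole uteri of ICR females aged 6 to 8 weeks was sequenced in 5 samples, and the labels place the collection 3.5 days after caging with vasectomized C57BL/6 males. The methods of the study give an earlier time, counted from coitus, and the difference could not be settled here. The males were young for the young-SP group (replicates 1, 2 and 4) and aged for the aged-SP group (replicates 1 and 4), where SP stands for seminal plasma, the sperm-free part of the ejaculate that the females of both groups received. A further young-SP sample, which the study set aside on its clustering, was not analysed here. The labels give each replicate as a sample of its own without naming the animal, so p-values measure only the spread between these 5 samples.

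The outer wall of the uterus, the myometrium, is built of smooth muscle. A smooth muscle cell contracts when a rise of calcium switches on myosin light chain kinase, which phosphorylates the regulatory light chain and lets myosin pull on actin filaments. These filaments are anchored in dense bodies and in the intermediate filament network, and serum response factor (SRF), with its coactivator myocardin, is known to drive many of the genes through a short DNA element called the CArG box. Striated muscle uses its own actins, myosins and troponins, arranged in sarcomeres.

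Acta1 was the one of the 10 genes that stood well apart between the groups, with a mean level 2.75-fold higher in the young-SP group. Acta2, the main smooth muscle actin, was also lower in both aged-SP libraries, by a smaller factor of 1.33. The other 8 genes overlapped between the groups, and 5 of the 10 lay above 0 and 5 below 0 on the log2 scale of aged-SP over young-SP. Of all tested genes 38.8% did not overlap between the groups, 19.3% with aged-SP below, so separation was not particular to these genes.

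The library totals lay between 15071914 and 16728601 counts. The 10 genes took between 1.19% and 1.84% of them. Of all listed genes, 17013 were tested, with a biological coefficient of variation of 25.1%. Young-SP 1 stood about as near to the aged-SP group as to its own, with root mean square log2 distances over the 500 most variable genes of 2.27 to aged-SP 4, 2.61 to aged-SP 1, 2.63 to young-SP 4 and 3.05 to young-SP 2. By a chi-square per degree of freedom over all genes it was nearest to young-SP 4 (26.4), followed by aged-SP 4 (28.1). Calls that change without this library are given without it as well. It was singled out for lying near the other group, so leaving it out can widen the group difference. Such calls therefore add no support to a difference. In whole tissue, fewer cells of a type and less RNA per cell cannot be told apart.

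The 4 muscle actin genes are close relatives, and the starts of their coding sequences are shown because the results turn on a difference between them. Capitals mark bases that differ from Acta1 in an alignment of the coding sequences. All stretches run 5′ to 3′ from the start codon over the first 60 coding bases of the GENCODE M21 transcript.
Acta1: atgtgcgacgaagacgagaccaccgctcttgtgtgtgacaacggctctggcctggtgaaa
Actc1: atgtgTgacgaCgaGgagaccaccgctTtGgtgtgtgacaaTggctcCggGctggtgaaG
Acta2: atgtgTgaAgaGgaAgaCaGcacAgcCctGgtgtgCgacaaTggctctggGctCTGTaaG
Actg2: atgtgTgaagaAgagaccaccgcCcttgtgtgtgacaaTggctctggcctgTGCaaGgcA
Of the bases shown, 9 of Actc1 (cardiac actin), 17 of Acta2 and 9 of Actg2 (enteric smooth muscle actin) differed from Acta1, and 3 bases of Acta1 were missing in Actg2. This gap is not drawn. The last 3 Actg2 bases shown, including the last capital, therefore align past the end of the Acta1 stretch. Over the whole coding sequence Acta1 was 86.3% identical to Actc1, 85.4% to Acta2 and 85.0% to Actg2. No stretch of 50 bases was shared between the coding sequences of any of the 6 pairs. Over all their transcripts, 2.02% of the 50-base stretches of Acta1 and 0.326% of those of Acta2 occur in transcripts of other genes.

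A CArG box was found in the promoter windows of 2 of the 7 genes of the list with a window in the RefSeq table on GRCm38.p6, namely Acta1 and Myl9. The windows reach from 250 bases before to 50 bases after the start site, both strands were searched, and the motif is a run of A and T bases between CC and GG. It occurs in 535 of 32851 windows, or 1.63%. The 2 stretches are shown with that of Actc1, the other striated actin gene, 5′ to 3′ on the strand of the gene, with the motif in capitals.
Acta1: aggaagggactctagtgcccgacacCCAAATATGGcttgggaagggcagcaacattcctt
Myl9: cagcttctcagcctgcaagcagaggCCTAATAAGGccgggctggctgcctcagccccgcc
Actc1: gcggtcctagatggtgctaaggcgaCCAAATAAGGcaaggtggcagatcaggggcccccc
The Acta1 stretch lies at chr8:123894814-123894873 on the minus strand, and its motif starts 73 bases before the start site. The Myl9 stretch lies at chr2:156775278-156775337 on the plus strand, with the motif 161 bases before the start site. For Actc1 the position is chr2:114052888-114052947 on the minus strand, with the motif 47 bases before the start site. The windows of Acta2, Mylk, Cnn1, Smtn and Des hold no match, which says only that these letters are not in this window. Actg2, Myh11 and Tagln have no window in the table.

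Levels between genes were compared in FPKM, which divides the count by gene length and library total, as the mean ± SD over all 5 libraries. Acta2 was the most abundant, at 1823 ± 389 FPKM, followed by Myl9, the regulatory light chain of smooth muscle myosin, at 1151 ± 262 FPKM. Myh11, the smooth muscle myosin heavy chain (597 ± 123 FPKM), and Actg2 (492 ± 177 FPKM) came next. Des, the intermediate filament protein desmin, had 346 ± 81.2 FPKM and Cnn1, the actin-binding protein calponin, had 338 ± 71.8 FPKM. Mylk, the myosin light chain kinase, followed at 195 ± 17.9 FPKM, Smtn, the actin-binding protein smoothelin, at 130 ± 20.9 FPKM, Acta1 at 99.4 ± 51.2 FPKM and Tagln at 5.61 ± 2.86 FPKM. The order of Smtn and Acta1 depended on the group, since Acta1 averaged 48.1 FPKM against 133 FPKM for Smtn in aged-SP, and 134 FPKM against 127 FPKM in young-SP. In the order over all libraries the neighbours Myh11 and Actg2, Actg2 and Des, Des and Cnn1, and Smtn and Acta1 had ranges of mean ± SD that overlapped, and the remaining neighbours did not. The 9 smooth muscle genes, used here as the markers of myometrial smooth muscle, had counts in every library. In RNA of whole uteri, the myometrium was not told apart from other sources of these transcripts.

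**Figure D1:**
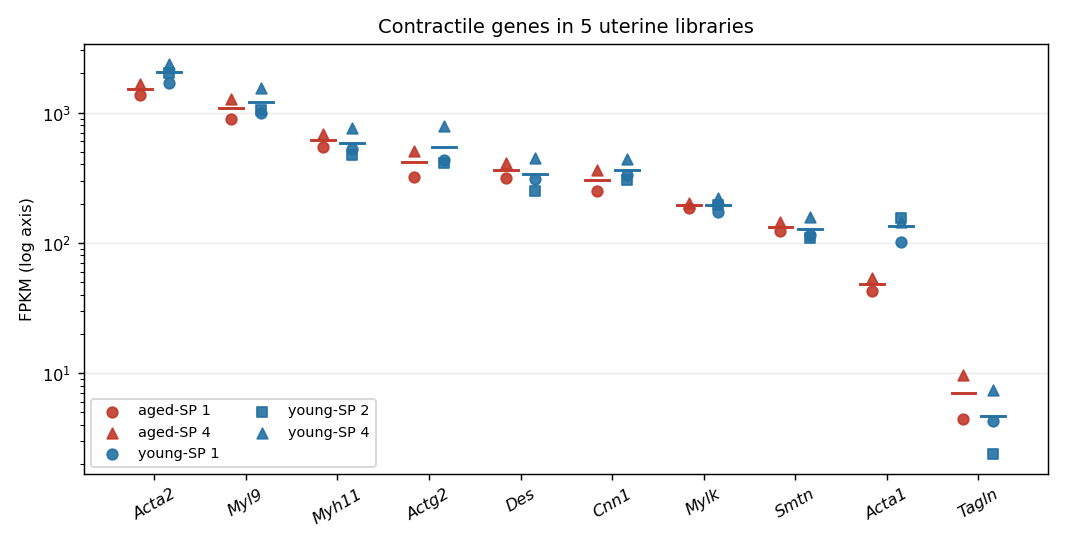
FPKM of the 10 genes on a log axis, 1 point per library, with aged-SP in red, young-SP in blue and a bar at each group mean. Acta2 and Myl9 lie at the top, Tagln at 2.37 to 9.63 FPKM lies far below the other genes, and Acta1 and Acta2 are the genes that have every aged-SP point below every young-SP point.

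Tagln encodes transgelin (SM22), an actin-binding protein that is known as one of the abundant proteins of smooth muscle, yet its counts were 147 and 300 in the aged-SP libraries and 138, 78 and 220 in the young-SP libraries. In GENCODE M21, 1349 of its 1988 exon bases, or 67.9%, overlap exons of Gm48529 and Pcsk7 on the opposite strand. Of its longest transcript of 1595 bases, 610 bases overlap no other gene. The deposited length of Tagln, 1988 bases, covers the overlapping bases as well, and the library kit is not stated to keep strand, so reads of these genes cannot be told apart by sequence there. The part of the overlap in the low Tagln count was not tested, and its level is uncertain. Exons of 3 other genes of the list overlap a neighbour over a smaller share, 16.3% for Smtn, 6.85% for Mylk and 5.86% for Des, and 6 genes overlap none. The deposited lengths of 7 genes of the list equal the GENCODE M21 exon bases, and those of Acta2, Myh11 and Mylk do not. The share of Mylk may therefore differ in the annotation used for the counts.

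Among the actins, the level of Acta1 was 66.1 and 82.6 CPM (the count scaled to library size after TMM) in aged-SP 1 and 4, and 156.7, 233 and 223 CPM in young-SP 1, 2 and 4. Both aged-SP libraries lay below all 3 young-SP libraries, and the lowest young-SP value, in young-SP 1, was still above the higher aged-SP value. The group means were 74.3 ± 11.7 CPM (SD, n = 2) against 204 ± 41.6 CPM (SD, n = 3). For aged-SP over young-SP this was -1.46 (SE 0.22) on the log2 scale. Leaving out single libraries moved this log2 fold change between -1.63, without young-SP 1, and -1.31, without aged-SP 1. Acta1 encodes the actin of the thin filaments of skeletal muscle, and lies at chromosome 8, 123891769 to 123894751, on the minus strand.

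Acta2 had 2475 and 2940 CPM in the aged-SP libraries and 3025, 3539 and 4268 CPM in the young-SP libraries. The groups did not overlap, but aged-SP 4 and young-SP 1 lay next to each other. The means were 2708 ± 329 CPM (SD, n = 2) against 3611 ± 625 CPM (SD, n = 3), and the log2 fold change was -0.42 (SE 0.17). Actg2, the actin of visceral smooth muscle, had 507 and 791 CPM in the aged-SP group and 682, 625 and 1230 CPM in the other group, with overlap. Its log2 fold change of -0.38 (SE 0.36) rested on young-SP 4, since without that library it was -0.02.

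Relative to Acta2, Acta1 separated the groups and Actg2 did not. Acta1 stood at 3.10 and 3.26 FPKM per 100 FPKM of Acta2 in the aged-SP libraries, against 6.01, 7.64 and 6.07 in young-SP 1, 2 and 4. These 2 ranges did not overlap, while the ratio of Actg2 to Acta2 overlapped, with 23.4 and 30.8 against 25.8, 20.2 and 33.0 FPKM per 100 FPKM. Of the summed FPKM of the 4 muscle actins, Acta1 made up 2.45% and 2.43% in the aged-SP group and 4.54%, 5.96% and 4.35% in the young-SP group. Acta2 made up 71.7% to 79.0% across the 5 libraries.

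The genes of the motor and its switch overlapped between the groups. Myh11 had 3627 and 4543 CPM in the aged-SP libraries and 3501, 3052 and 5110 CPM in the young-SP libraries, a log2 fold change of 0.07 (SE 0.24). The highest and the lowest value both belonged to the young-SP group. Myl9 had 1057 and 1471 CPM against 1167, 1186 and 1817 CPM, with a log2 fold change of -0.14 (SE 0.25) that lay between -0.39, without aged-SP 4, and 0.09, without young-SP 4. Mylk, whose product switches on the motor, had 1912 and 2067 CPM against 1755, 1948 and 2239 CPM, with a log2 fold change of 0.01 (SE 0.13). Mylk varied least of the 10 genes, its highest library lying at 1.28 times its lowest.

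Among the actin-binding and filament proteins, Cnn1 had 688 and 989 CPM in the aged-SP group and 919, 820 and 1221 CPM in the young-SP group, a log2 fold change of -0.24 (SE 0.23) that was -0.52 without aged-SP 4 and 0.00 without aged-SP 1. Smtn had 543 and 628 CPM against 504, 467 and 700 CPM, with a log2 fold change of 0.07 (SE 0.20). Des had 1197 and 1545 CPM against 1168, 913 and 1691 CPM, with a log2 fold change of 0.12 (SE 0.28). In these 3 genes the groups overlapped, and the highest value was that of young-SP 4. Tagln had 8.89 and 19.2 CPM against 8.63, 4.61 and 14.7 CPM. Its log2 fold change of 0.59 (SE 0.55) was about as large as its error and turned to -0.06 without aged-SP 4. Without young-SP 4 it was 1.07.

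**Figure D2:**
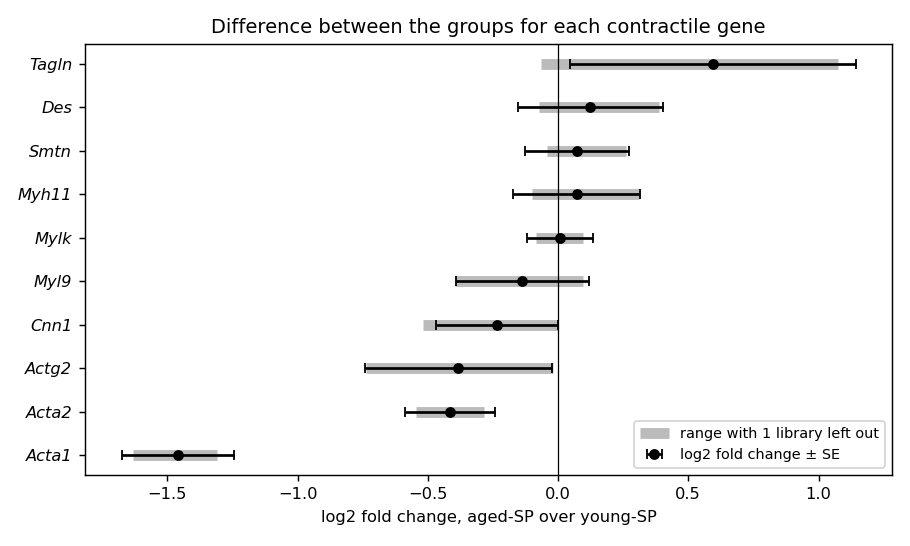
Log2 fold change of aged-SP over young-SP for the 10 genes from the edgeR fit, with black bars of 1 standard error, grey bars for the range when 1 library is left out and a line at 0. Acta1 at -1.46 lies far to the left, the smooth muscle genes lie between -0.42 and 0.59, and the bars of Tagln are the widest.

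By the fit over all tested genes with edgeR's quasi-likelihood test and Benjamini-Hochberg adjustment, 0 of the 10 genes were called, where called means an adjusted p under 0.05 together with a log2 fold change beyond 1 in either direction. Of all tested genes 0.147% were called, 0.0823% as higher and 0.0647% as lower in aged-SP. With DESeq2 1 of the 10 genes, Acta1, was called as lower in aged-SP, beside 3.60% of all genes in either direction and 1.92% as lower, and with limma-voom 0 were called. In edgeR 1 gene had an unadjusted p under 0.05, beside 19.0% of all genes. Without overlap between the groups were 2 of the 10 genes, both with aged-SP below, beside 38.8% of all tested genes, 19.3% with aged-SP below and 19.5% above. Acta1 was also called by edgeR without young-SP 1, where 3.45% of all genes were called, and with no filter on low counts, where 0.708% were. Of the 10 genes 0 were called without young-SP 2 and 0 without young-SP 4, where 0.018% and 0.012% of all genes were called. Nothing is read from these counts, since the genes were chosen with this comparison known. The median log2 fold change was -0.07 over the 10 genes and 0.01 over the 9 smooth muscle genes, beside 0.01 over all tested genes.

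The 9 smooth muscle genes followed single libraries, and the extreme values of most of them fell within the young-SP group or in aged-SP 1. Young-SP 4 held the highest CPM for 8 of the 9 genes, Tagln being the exception with its highest value in aged-SP 4. The lowest value was in aged-SP 1 for 4 genes, in young-SP 2 for 4 and in young-SP 1 for 1. Averaged over the 9 genes and centred on the 5 libraries, the log2 CPM was -0.23 and 0.21 in aged-SP 1 and 4, and -0.13, -0.29 and 0.43 in young-SP 1, 2 and 4. The groups overlapped, and the lowest and the highest library were both young-SP. Acta1, on the same scale, had -1.03 and -0.71 in the aged-SP libraries and 0.22, 0.79 and 0.73 in the young-SP libraries. Acta1 relative to the smooth muscle mean was -0.80 and -0.92 in the aged-SP group and 0.35, 1.08 and 0.29 in the young-SP group, without overlap.

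**Figure D3:**
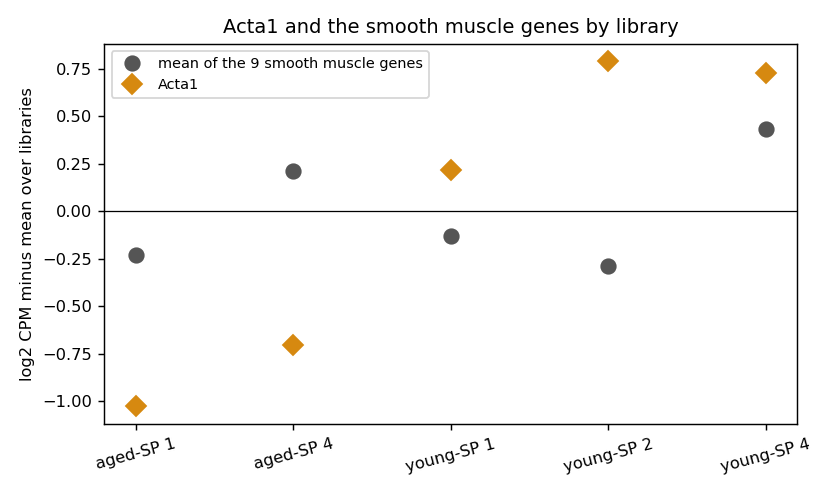
Log2 CPM minus its mean over the 5 libraries, with the libraries along the horizontal axis, for the mean of the 9 smooth muscle genes (grey circles) and for Acta1 (orange diamonds). The smooth muscle mean is low in aged-SP 1 and young-SP 2 and high in aged-SP 4 and young-SP 4, while Acta1 is below 0 in both aged-SP libraries and above 0 in the 3 young-SP libraries.

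Some markers of other tissue were also highest in young-SP 4. Ovgp1, an oviduct secretory gene, had 232.6 CPM there and 35.1 to 119 CPM in the other 4 libraries. It made up most of the 237 CPM of the 6 oviduct, cervix and vagina markers there (38.0 to 123 CPM elsewhere), and the other 5 summed to 4.41 CPM in young-SP 4, within the range of 2.90 to 7.31 CPM of the remaining libraries. The 5 mesothelium markers summed to 246 CPM in young-SP 4 and to 148 to 176 CPM elsewhere. The 4 adipose markers in the table summed to 6.74 CPM in young-SP 4 and to 3.20 to 4.85 CPM elsewhere. Fabp4 gave most of this sum, with 4.94 CPM in young-SP 4 and 4.85 CPM in young-SP 2. Adipoq and Cidec were at 0 in the other 4 libraries and at 0.801 and 0.534 CPM in young-SP 4, which is 12 and 8 counts. Plin1 had 7 counts in young-SP 4 and 2 in young-SP 1. The part of these markers of other tissue in the high smooth muscle values of young-SP 4 was not tested. Without young-SP 4, the median log2 fold change of the 10 genes was 0.10.

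Collagen genes among the uterine stroma markers were lower in the aged-SP libraries, as Acta1 was. The summed level of the 8 markers was 12490 and 14419 CPM in the aged-SP libraries and 17966 to 23094 CPM in the young-SP libraries. The 3 collagens gave 9174 to 10115 CPM of it in aged-SP and 14559 to 18322 CPM in young-SP, while the other 5 markers overlapped in their sum, with 3316 to 4303 CPM against 3407 to 5192 CPM. Pdgfra, Col1a1, Col1a2, Col3a1 and Hand2 did not overlap, all with aged-SP below, which is 62.5% of the list beside 38.8% of all tested genes. Dcn, Lum and Vim overlapped, and Dcn had a log2 fold change of 0.07. None of the 8 was called by edgeR or DESeq2, and 5 (62.5%) had an unadjusted edgeR p under 0.05, beside 19.0% of all tested genes. Col1a1, a chain of type I collagen, had the lowest log2 fold change of them, -0.90, with an adjusted p of 0.0734 with edgeR and 9.78e-07 with DESeq2. The part of this difference in the Acta1 values was not tested. The epithelial markers summed to 1142 and 1209 CPM in aged-SP, and to 1461, 757 and 924 CPM in young-SP 1, 2 and 4. These groups overlapped through young-SP 1. The summed levels of the endothelial (479 to 833 CPM), pericyte (840 to 1092 CPM) and leukocyte markers (797 to 1613 CPM) also overlapped between the groups.

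The striated muscle genes were mixed, with the myosin heavy chains of the list at low counts and some troponins well counted. Of 48 striated sarcomere and skeletal muscle genes, 43 are in the table and 22 had enough counts to be tested. The 21 untested ones had at most 18 counts in any library, a count that Myh8 had in young-SP 4. Myh1, Myh2, Myh7, Myl1 and Myog, which were picked from these, had at most 2. Others of the untested genes were higher, with up to 11 counts for Tnnc1 and up to 9 for Myh6. The summed level of the list was 248 and 311 CPM in the aged-SP libraries and 291, 283 and 318 CPM in the young-SP libraries, with overlap, and Myom1 gave 104 to 125 CPM of it in each library. Tnni2 and Tnnt3, troponins of fast skeletal muscle picked after their values were seen, had 387 to 970 and 253 to 491 counts per library, and their groups overlapped. Ckm, the creatine kinase of muscle, had 4.53 and 4.80 CPM against 3.44, 4.67 and 11.3 CPM. Of the 22 tested genes 0 were called by edgeR, and 4 (18.2%, beside 19.0% of all genes) had an unadjusted p under 0.05, 1 higher and 3 lower in aged-SP. DESeq2 called 3, or 12.5% of those with an adjusted p, beside 3.60% of all genes. The median log2 fold change of the 22 genes was -0.03.

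The 3 striated genes that DESeq2 called did not move in 1 direction. Actc1, the actin of heart muscle, had 1.75 and 6.20 CPM in the aged-SP group and 14.5, 11.2 and 15.7 CPM in the young-SP group, a log2 fold change of -1.80 (SE 0.54). Its adjusted p was 0.177 with edgeR and 0.00989 with DESeq2, and the fold change rested on the aged-SP libraries, with -2.97 without aged-SP 4 and -1.15 without aged-SP 1. Tnnt2, cardiac troponin T, had 6.53 and 7.87 CPM against 16.3, 16.4 and 22.0 CPM, a log2 fold change of -1.34 (SE 0.21). Its adjusted edgeR p was 0.0760, and 0.0388 without young-SP 1. Tnnt2 was not called by edgeR without young-SP 2 or without young-SP 4. Mybpc1, a myosin-binding protein of slow skeletal muscle, went the other way, with 40.2 and 59.5 CPM in the aged-SP group and 17.6, 23.8 and 22.3 CPM in the young-SP group. Its log2 fold change was 1.23 (SE 0.22), with an adjusted edgeR p of 0.0848. Tcap, a sarcomere anchoring protein, had the highest log2 fold change of the list, 1.35 (SE 0.74), with an adjusted edgeR p of 0.383. It had no more than 1.34 CPM in any library and 1 count in young-SP 4. Without young-SP 4 the log2 fold change of Tcap was 0.86. Actc1 stood at 2.52 to 8.79 FPKM per 100 FPKM of Acta1, with overlap between the groups.

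The non-muscle actins did not separate the groups. Actb had 1893 and 2149 CPM in the aged-SP libraries against 1928, 1878 and 2267 CPM in the young-SP libraries, and Actg1 had 844 and 1110 CPM against 946, 1023 and 1149 CPM. Their adjusted edgeR p values were 0.994 and 0.791.

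Around the 10 genes stand 139 partner genes of the contractile machinery in 6 lists, of which 134 are in the table and 113 were tested. Of these 0 were called by edgeR, with a smallest adjusted p of 0.0734, and limma-voom called 0. At an unadjusted edgeR p under 0.05 stood 26, or 23.0%, beside 19.0% of all tested genes. No overlap between the groups was seen in 41, or 36.3%, beside 38.8% of all tested genes, so both shares lay near the background. DESeq2 called 9 of the 115 with an adjusted p, or 7.83%, beside 3.60% of all genes. Those higher in aged-SP were Oxtr, Agtr1a, Chrm3, Kcnmb1 and Mybpc1, and those lower were Gja1, Pln, Actc1 and Tnnt2. Without young-SP 1 edgeR called 4 of them, Agtr1a, Oxtr, Pln and Tnnt2. This is 3.54% of the partner genes tested, beside 3.45% of all genes in that fit. It called 0 partner genes without young-SP 2 and 0 without young-SP 4, beside 0.018% and 0.012% of all genes.

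**Figure D4:**
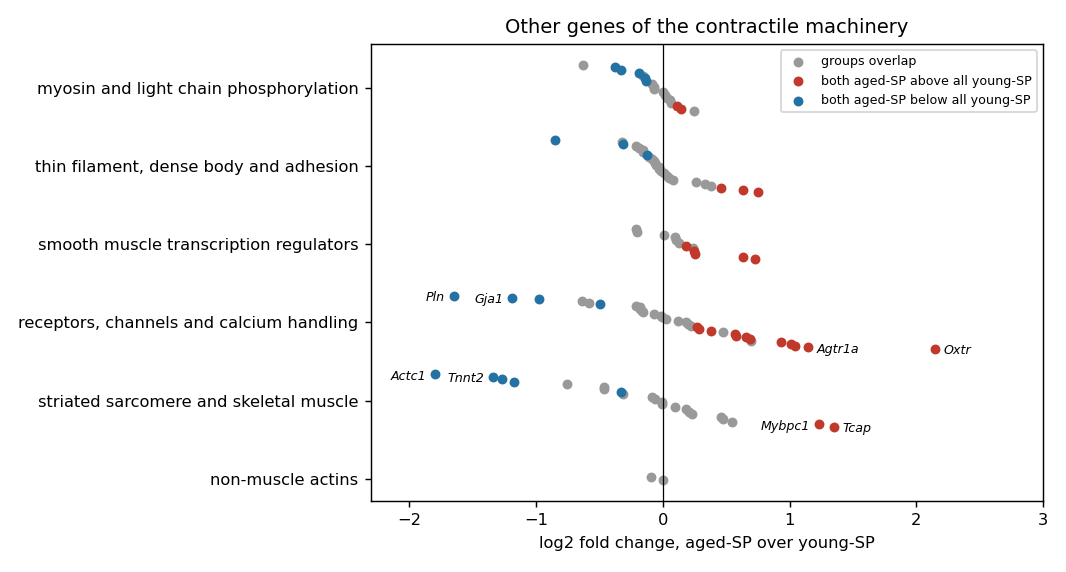
Log2 fold change of aged-SP over young-SP for the tested genes of the 6 partner lists, 1 point per gene, in red where both aged-SP libraries lay above all young-SP libraries, blue where both lay below and grey where they overlapped. The outermost genes are named, and Oxtr at 2.14 and Actc1 at -1.80 are the farthest points on either side.

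The receptors, channels and calcium handling genes, whose source cells in whole uteri were not told apart, held 6 of these 9 genes. Of the 33 tested, 9 had an unadjusted edgeR p under 0.05 with aged-SP higher and 4 with aged-SP lower, together 39.4% beside 19.0% of all tested genes. None was called by edgeR, DESeq2 called 6 (18.2%, beside 3.60% of all genes), and the median log2 fold change was 0.18. Oxtr, the receptor through which oxytocin contracts the uterus, had 86.6 and 67.9 CPM in aged-SP 1 and 4 and 18.5, 10.8 and 23.2 CPM in young-SP 1, 2 and 4. Both aged-SP values lay far above the young-SP ones, with a log2 fold change of 2.14 (SE 0.32). Its adjusted p was 0.0734 with edgeR, 1.07e-07 with DESeq2 and 0.0466 with edgeR without young-SP 1. Without young-SP 2 or without young-SP 4, edgeR did not call Oxtr. Agtr1a, an angiotensin II receptor, had 21.6 and 18.9 CPM against 7.94, 9.46 and 10.1 CPM, a log2 fold change of 1.14 (SE 0.17). The adjusted edgeR p of Agtr1a was 0.0734. It was 0.0381 without young-SP 1, 0.214 without young-SP 2 and 0.227 without young-SP 4.

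Gja1, the gap junction protein connexin 43 that couples muscle cells electrically, had 77.5 and 83.9 CPM in the aged-SP group and 239, 118 and 195 CPM in the young-SP group. The groups did not overlap, and young-SP 2 lay nearest to the aged-SP values. Its log2 fold change was -1.19 (SE 0.30), with an adjusted p of 0.143 with edgeR and 0.00303 with DESeq2, and it was -0.97 without young-SP 1. Pln, phospholamban, which restrains the calcium pump of the sarcoplasmic reticulum, had 1.45 and 2.24 CPM against 4.94, 6.44 and 6.01 CPM. Its log2 fold change was -1.65 (SE 0.29), with an adjusted edgeR p of 0.0867, and 0.0464 without young-SP 1. Pln was not called by edgeR without young-SP 2 or without young-SP 4. Chrm3 and Kcnmb1 fell outside the rule for named genes and were picked after their values were seen. Chrm3, a muscarinic receptor, had 7.80 and 8.38 CPM in the aged-SP group and 4.19, 4.02 and 3.81 CPM in the young-SP group, a log2 fold change of 1.01 (SE 0.18) with an adjusted p of 0.0867 with edgeR and 0.00513 with DESeq2. Kcnmb1, a subunit of the calcium-activated potassium channel of smooth muscle, had 63.4 and 125 CPM against 46.8, 35.9 and 53.8 CPM. Its groups did not overlap, but the log2 fold change of 1.05 (SE 0.32), with an adjusted p of 0.178 with edgeR and 0.0286 with DESeq2, was 0.48 without aged-SP 4.

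**Figure D5:**
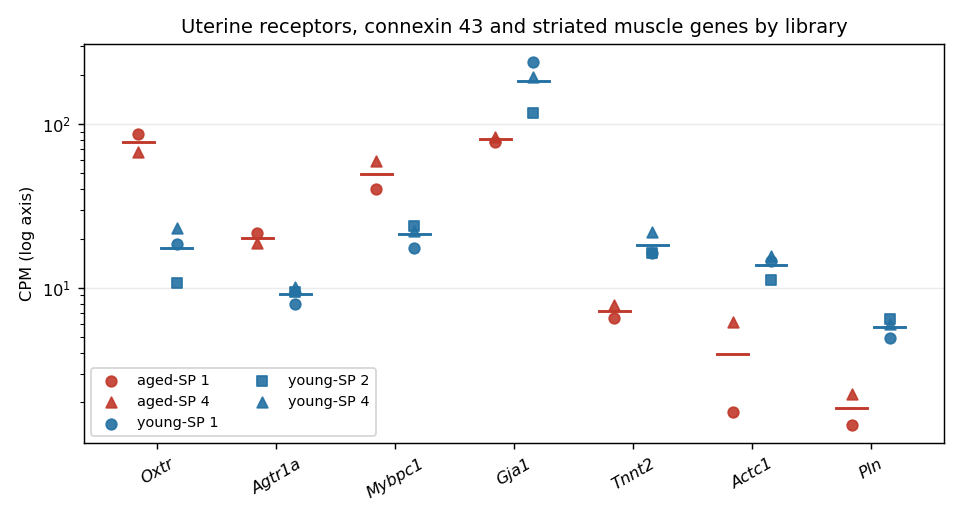
CPM on a log axis of Oxtr, Agtr1a, Mybpc1, Gja1, Tnnt2, Actc1 and Pln in the 5 libraries, with aged-SP in red, young-SP in blue and a bar at each group mean. Oxtr lies at 67.9 to 86.6 CPM in aged-SP and at 10.8 to 23.2 CPM in young-SP, and Gja1, Tnnt2, Actc1 and Pln lie lower in both aged-SP libraries.

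Of the 12 transcription regulators of smooth muscle genes, 10 had a log2 fold change above 0, with a median of 0.15, and 0 were called by edgeR or DESeq2. At an unadjusted edgeR p under 0.05 stood 2 (16.7%, beside 19.0% of all tested genes). Srf had 129 and 124 CPM in the aged-SP libraries and 103, 112 and 133 CPM in the young-SP libraries, with a log2 fold change of 0.13 (SE 0.13) and an adjusted edgeR p of 0.638. Myocd, which encodes myocardin, had 38.6 and 54.4 CPM against 22.6, 38.0 and 29.1 CPM. Its groups did not overlap, but aged-SP 1 and young-SP 2 were nearly equal, and the log2 fold change of 0.64 (SE 0.26) had an adjusted edgeR p of 0.268 and was 0.37 without aged-SP 4. Klf4, a repressor of smooth muscle genes, had the highest log2 fold change of the list, 0.73 (SE 0.28), with an adjusted edgeR p of 0.255. The value of Klf4 rested on aged-SP 1, since without that library it was 0.23, below the 0.86 of Myocd. Elk1, a cofactor of SRF that competes with myocardin, and Foxf1 had the lowest, -0.21 (SE 0.17) and -0.20 (SE 0.27).

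Of the 26 thin filament, dense body and adhesion genes, 0 were called by edgeR or DESeq2, 3 had an unadjusted edgeR p under 0.05 with aged-SP higher and 2 with aged-SP lower (together 19.2%, beside 19.0% of all tested genes), and the median log2 fold change was -0.04. Cnn3, a calponin that is not limited to smooth muscle, had 208 and 199 CPM in the aged-SP libraries and 311, 373 and 416 CPM in the young-SP libraries. On the log2 scale the fold change was -0.85 (SE 0.15), with an adjusted edgeR p of 0.0829. Without young-SP 1 it was -0.97 with an adjusted edgeR p of 0.0238, short of a call by its fold change. The adjusted edgeR p of Cnn3 was 0.241 without young-SP 2 and 0.231 without young-SP 4. Itga8, an integrin subunit that links muscle cells to the matrix, had 51.9 and 50.8 CPM against 28.5, 27.8 and 35.5 CPM, with a log2 fold change of 0.75 (SE 0.14) and an adjusted edgeR p of 0.0872. Tns1, the adhesion protein tensin, had a log2 fold change of 0.63 (SE 0.20), with an adjusted edgeR p of 0.196, and Ldb3 had -0.33 (SE 0.28), with an adjusted edgeR p of 0.563.

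The 18 genes of myosin and light chain phosphorylation had a median log2 fold change of -0.07. None was called by edgeR or DESeq2, 2 (11.1%, beside 19.0% of all tested genes) had an unadjusted edgeR p under 0.05, both lower in aged-SP, and the log2 fold changes lay between -0.63 (Myl6b, a myosin light chain) and 0.25 (Ppp1r14a, an inhibitor of the myosin phosphatase). Rock2, a kinase that inhibits the myosin phosphatase, had the next highest log2 fold change after Ppp1r14a, 0.14 (SE 0.09). The value of Myl6b rested on single libraries, with -0.17 without aged-SP 1 and -1.30 without aged-SP 4.

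The genes whose pattern over the 5 libraries lay nearest to the smooth muscle mean were searched among 13424 genes with a mean of at least 50 counts, by the root mean square difference of centred log2 CPM. Among them were Gm12816 (0.06), a processed pseudogene, Gfra4 (0.06), Adamts8 (0.07) and Itih5 (0.07). Of these Itih5 was the most abundant, with 249 to 425 CPM, and the other 3 had at most 10.4 CPM. Nearest to Acta1 were Tex15 (0.06), Dlg2 (0.07), Gm8116 (0.08), a processed pseudogene, Mrgprf (0.09) and Coro2a (0.11). Tex15 had 22.0 and 25.6 CPM in the aged-SP libraries and 55.0, 79.0 and 77.2 CPM in the young-SP libraries, and Coro2a had 39.5 and 49.6 CPM against 91.3, 115 and 120 CPM in the same order. Since the search covers many genes and 5 libraries, near matches are a description of these libraries.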

How the data were processed

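Uterine RNA of 2 aged-SP and 3 young-SP libraries was analysed, with groups taken from the labels. All per-sample columns were used, so 0 stayed unused. The authors deposited raw read counts per gene for every library. According to the submitters' processing notes the tools were HISAT2 2.1.0, HTSeq 0.6.0 and Bowtie2 2.2.3, and the genome build, annotation release and counting mode are not given in the sources used here. The positions match GRCm38. In the deposited FPKM values the authors divided counts by gene length and library total, and these values were used only to compare levels between genes. The deposited table also holds the authors' mean signal after DESeq2 scaling, their log2 fold change, the same change as a linear ratio, and their p-values and adjusted p-values, none of which was used.

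Genes were kept by filterByExpr, scaled by TMM and compared with glmQLFit and glmQLFTest in edgeR 4.0.16 (R 4.3.3). DESeq2 1.42.0 and limma 3.58.1 were alternatives, as were other scalings and count filters, the adjusted p alone, a replicate block and each library left out. A prior count of 2 was added for log2 CPM. The scripts were tested on simulated data. Counting error is small for all genes of the list except Tagln, which had 78 to 300 counts per library. The lowest count of any other gene of the list was 1093, for Acta1 in aged-SP 1. Sequence comparisons used Python 3.11.15 with GENCODE M21 and RefSeq promoter windows.

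The 10 genes, the partner and marker lists and the tests were chosen with earlier results of these data known. Named were the 10 genes, Srf, Myocd, Oxtr, Gja1, Actc1, Actb and Actg1, called genes and the 2 highest and 2 lowest log2 fold changes of each partner list, the 5 nearest profiles, and markers by their summed level. Some genes that this rule names are not reported here.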

Additional observations from a re-analysis of the deposited data

How the results depend on the processing

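The number of called genes over all tested genes was 25 and moved to 632 with DESeq2's Wald test, 203 with no low-count filter and 2 with a replicate block. Leaving out single libraries gave between 1, without aged-SP 1, and 578, without young-SP 1, and the cause was not tested. Without aged-SP 1 or 4, the lone aged-SP library is assumed to vary like the young-SP group. The number of called partner genes was 0 and moved to 9 with DESeq2's Wald test and 4 with no low-count filter, and it lay between 0 and 4 (without young-SP 1) when single libraries were left out. The labels share replicate numbers 1 and 4 between the groups but do not say that these mark a pair, and the correlation of the deviations was 0.152 and 0.136 for the same number and between -0.152 and 0.076 for others. The replicate block called 0 partner genes. For the 10 genes, 0 of 120 alternative values moved by more than the replicate SD and 101 kept their sign. Their median lay between -0.25, without aged-SP 4, and 0.10, without young-SP 4. Depth limits Tagln, with 78 to 300 counts per library, and the untested striated genes.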
